A study of Mus musculus with 6 samples.

Results

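The genes described here are the 10 that release calcium from the endoplasmic reticulum and refill it, among 49568 gene names measured in each sample. They were chosen by name, with earlier results of these data known. They are the inositol trisphosphate (IP3) receptors Itpr1, Itpr2 and Itpr3 and the ryanodine receptors Ryr1, Ryr2 and Ryr3. The others are the store sensors Stim1 and Stim2, the plasma membrane channel Orai1 and the store pump Atp2a2. The sequenced RNA came from 6 pools of 15 neurons, taken from the preBötzinger complex (preBötC), the brainstem region that generates the inspiratory rhythm. All 6 mice were Dbx1CreERT2; Rosa26tdTomato pups at postnatal day 2 whose dams had received tamoxifen, and each sample came from a different pup. The 3 Dbx1 samples held tdTomato-labelled neurons, descended from progenitors that expressed the transcription factor Dbx1, and the 3 non-Dbx1 samples held neurons of the same region without visible tdTomato. The label depends on Cre activity around the time of tamoxifen, so an unlabelled soma is defined by lack of fluorescence and not by known ancestry.

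IP3 receptors open when IP3, made by phospholipase C after activation of a Gq-coupled receptor, binds together with calcium. Ryanodine receptors open in response to calcium itself and so amplify calcium that has entered through the plasma membrane. When the store empties, STIM proteins in its membrane sense the loss and open ORAI channels in the plasma membrane, and SERCA pumps return cytosolic calcium to the store. In preBötC neurons intracellular calcium is known for its link to the inward currents that carry the inspiratory burst.

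Levels are given as RPKM, the reads of a gene divided by its exon length and by the depth of the sample. Depth here is the number of reads assigned to genes, 6464675 to 9432958 per sample, and values given as reads are whole numbers recovered from the steps between RPKM values. The log2 fold change (L2FC) subtracts the non-Dbx1 mean of log2(RPKM + 1) from the Dbx1 mean. It was tested with limma over the 17614 genes detected in 3 or more samples (RPKM above 0), with a false discovery rate (FDR) threshold of 0.1. On this scale changes of genes with low RPKM are understated. Of the tested genes, 1 (0.00568%) passed that threshold, D930028M14Rik, which is not one of the 10 and is named because it was the only one. The authors tested read counts with DESeq2 at the same threshold and reported genes that passed in each direction. The count of 1 therefore belongs to the test used here and does not show that the groups are alike. A low value in a pool of neurons can come from fewer expressing cells or from less RNA per cell, which cannot be told apart.

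Summed RPKM of 6 neuronal markers was 993 to 1708 in every sample. Summed RPKM of 5 microglial markers was at most 2.97, with Itgam and Tmem119 listed at 0 throughout, and that of 4 pericyte and smooth muscle markers was at most 4.32. Non-Dbx1 replicate 2 had the highest endothelial sum (67.5 over 4 markers, 63.7 of it Cldn5, against at most 3.08 in the other samples). Non-Dbx1 replicate 3 had the highest sum of 4 motor and cholinergic markers (62.3, against 1.34 to 20.4 elsewhere). Non-Dbx1 replicate 1 stood apart in oligodendrocyte lineage and globin genes, and its values are given beside Itpr2.

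Of the 10 genes, 8 had reads in all 6 samples and 8 had a mean above 1 RPKM. The pump Atp2a2 was the most abundant by far, the 3 ryanodine receptors and the STIM-ORAI genes lay at a few RPKM, and the IP3 receptors were low in most samples. For none of the 9 genes that could be tested was a difference between Dbx1 and non-Dbx1 neurons detected, with FDR from 0.942 to 0.983. The lowest unadjusted p was 0.213 by limma, so 0 of 9 fell below 0.05, where 5.2% of all tested genes did.

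**Figure D1:**
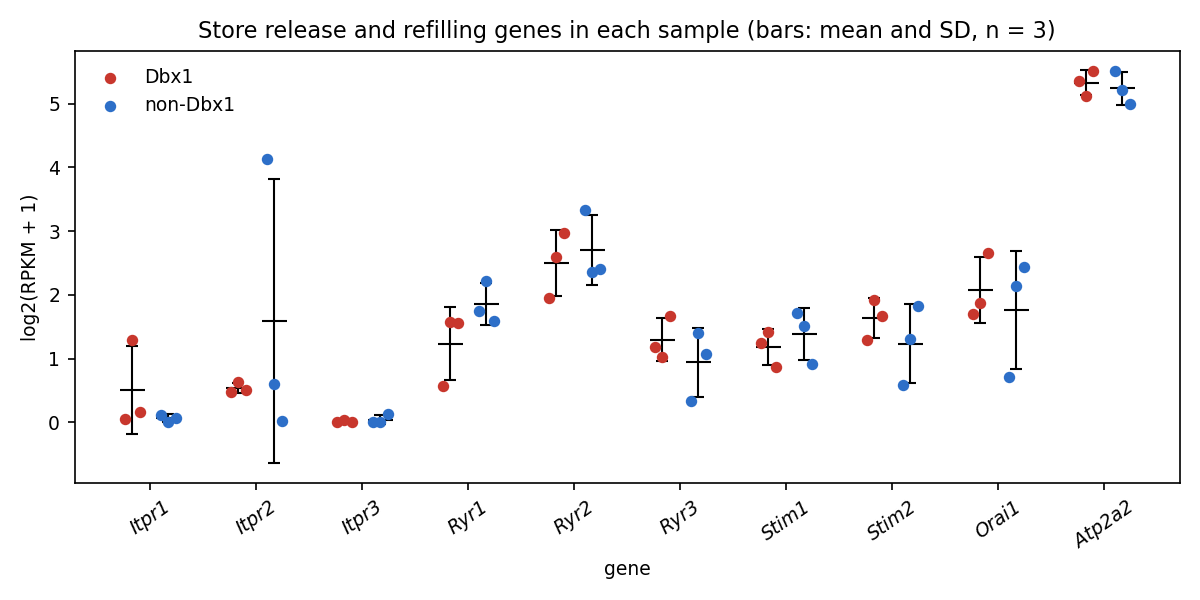
Each point is log2(RPKM + 1) of a gene in 1 sample, red for Dbx1 and blue for non-Dbx1, and the black bars are the mean and SD of the 3 samples of a group on that scale. Atp2a2 lies far above the rest, and single high samples carry Itpr1 (Dbx1 replicate 2) and Itpr2 (non-Dbx1 replicate 1).

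Itpr1 encodes the IP3 receptor best known from neurons, above all from cerebellar Purkinje cells. Its RPKM was 0.0411, 1.46 and 0.123 in Dbx1 replicates 1, 2 and 3, and 0.0884, 0 and 0.0519 in non-Dbx1 replicates 1, 2 and 3. In reads these were 8, 269 and 21 against 14, 0 and 12, so that 83.0% of all its reads came from Dbx1 replicate 2. The groups overlapped, and the other 5 samples were all at or below 0.123. The 0 reads of non-Dbx1 replicate 2 allow up to 0.0143 RPKM (3 reads), a limit that covers counting error only. The means were 0.541 ± 0.796 and 0.0468 ± 0.0444 (SD, n = 3 each), and the L2FC was 0.44 ± 0.329 (SE, limma FDR = 0.942). Without Dbx1 replicate 2 the L2FC was 0.05. On scales that compress low values less it was larger, at 1.37 with a pseudocount of 0.1 and 3.18 with voom on recovered reads, and it did not pass the FDR threshold there either. Itpr1 spans chr6:108213096-108551109 on the forward strand of GRCm38, and 1.58% of its exonic bases are shared with genes on the opposite strand, which counting without strand cannot separate.

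Itpr2 encodes the IP3 receptor that predominates in astrocytes, and its transcript is also known from newly formed oligodendrocytes. Its RPKM was 0.386, 0.546 and 0.427 across Dbx1 replicates. Across non-Dbx1 replicates it was 16.6, 0.521 and 0.0158. The Dbx1 samples lay close together, while the non-Dbx1 samples held both the highest and the lowest value of the 6. Non-Dbx1 replicate 1 had 2166 reads, 87.9% of the total for this gene, and its RPKM was 30.4-fold that of the next sample. Non-Dbx1 replicate 3 had 3 reads. The means were 0.453 ± 0.0830 and 5.71 ± 9.43 (SD, n = 3 each), with an L2FC of -1.05 ± 0.979 (SE, 95% interval -3.29 to 1.19, limma FDR = 0.951). Without non-Dbx1 replicate 1 the L2FC was 0.22 (limma FDR = 0.952), and the direction was then reversed. Itpr2 lies on the reverse strand at chr6:146108299-146502223, and its exons overlap no other gene in the annotation used here.

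The library with high Itpr2 also differed in markers of other cells. Summed RPKM of 4 oligodendrocyte lineage genes was 354 in non-Dbx1 replicate 1 and 25.9 to 72.4 in the other samples. All 4 were above 0 in every sample, and Mbp (155) and Cnp (136) made up most of the sum in non-Dbx1 replicate 1, while Mog was 0.514 there. Olig1 was 62.4 in that library and 10.6 to 63.9 in the others. Mbp was 1.35 to 3.45 over the Dbx1 samples and 4.52 to 155 over the others, and Cnp was 4.99 to 12.6 and 22.3 to 136. Summed RPKM of 4 globin genes was 13946 in non-Dbx1 replicate 1, 1198 and 732 in non-Dbx1 replicates 2 and 3, and 89.6, 218 and 505 in Dbx1 replicates 1, 2 and 3. For Mbp, Cnp and the globin sum, therefore, every non-Dbx1 sample was above every Dbx1 sample. The sum of 5 astrocyte markers was highest there too, at 63.4 against 27.2 to 50.7, but the 5 did not move together. S100b, at 44.2, made up most of the sum, and Aldh1l1 was 14.4. Slc1a3 was 4.64 there, below non-Dbx1 replicates 2 (8.72) and 3 (11.5), with Gfap at 0.126 and Aqp4 at 0.0304. The part of these cells or of their RNA in the Itpr2 value was not tested.

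**Figure D2:**
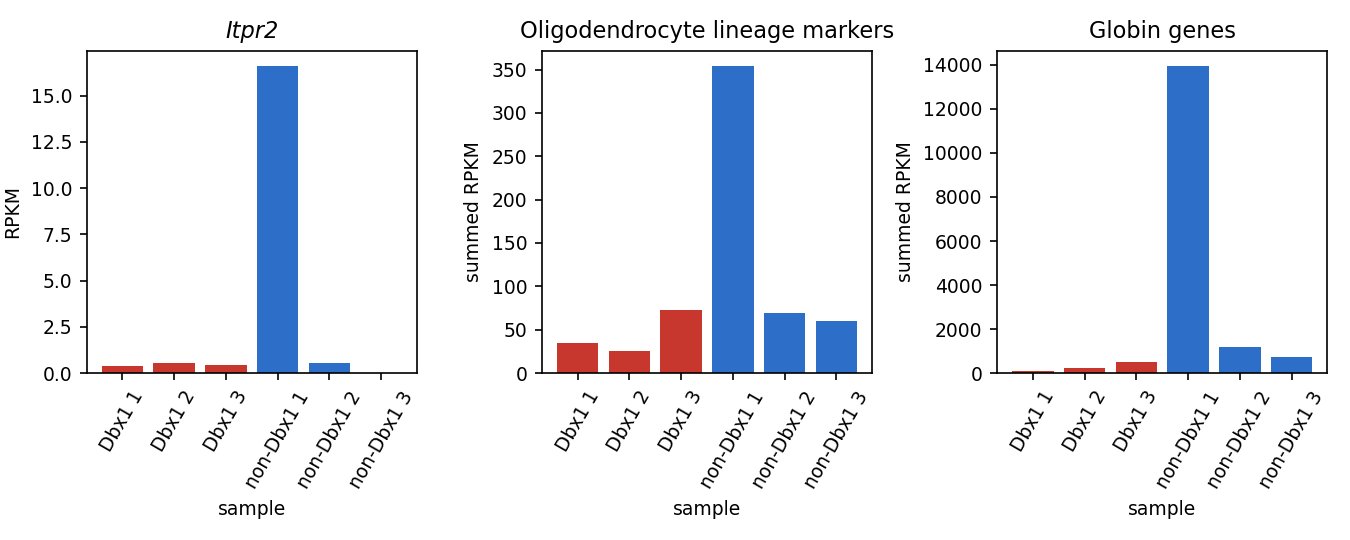
Bars give RPKM of Itpr2, summed RPKM of 4 oligodendrocyte lineage markers and summed RPKM of 4 globin genes in each sample, red for Dbx1 and blue for non-Dbx1, on linear axes from 0. Non-Dbx1 replicate 1 is the highest sample in all 3 panels, at 16.6, 354 and 13946.

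Itpr3 encodes the receptor known best from taste cells and secretory epithelia. It was listed at 0 in 4 samples, with 0.0295 RPKM in Dbx1 replicate 2 and 0.0943 in non-Dbx1 replicate 3. If the gene length is the 8990 bases of its annotated coding transcript, these values stand for 2 and 8 reads. The first is under the 3 reads taken here as detection, so detection rests on a single sample. At that length a count of 0 allows up to 0.0390 to 0.0516 RPKM in the 4 samples at 0. Itpr3 was not tested, since it was above 0 in fewer than 3 samples. It lies at chr17:27057304-27122223, forward strand, where Itpr3os on the opposite strand and Mir7677 share 2.59% of its exonic bases.

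Ryr1, the release channel of skeletal muscle, was the only one of the 10 genes whose groups did not overlap. Its RPKM was 0.485, 1.98 and 1.94 across Dbx1 replicates, against 2.36, 3.67 and 2.02 across non-Dbx1 replicates. The gap was narrow, with 1.98 as the highest Dbx1 value and 2.02 as the lowest non-Dbx1 value. Over all tested genes, 10.6% had groups that did not overlap, so 1 of 9 is near the background. Of the cell markers, the globin genes and their sum, Mbp, Cnp and Slc1a3 also had groups that did not overlap, with the same group higher. Eno2, Gfap and Acta2 did not overlap with the Dbx1 group higher, and Olig1 and Mog overlapped. The part of such cells or their RNA in the Ryr1 values was not tested. The means were 1.47 ± 0.852 and 2.69 ± 0.872 (SD, n = 3 each). The L2FC was -0.62 ± 0.568 (SE, 95% interval -1.92 to 0.68, limma FDR = 0.951), and the exact two-sided permutation test gave p = 0.1, the smallest that 3 against 3 samples allow. Without Dbx1 replicate 1, the lowest sample, the L2FC was -0.29, and with voom on recovered reads it was -1.11 (FDR = 0.876). Ryr1 lies at chr7:29003344-29125179 on the reverse strand and shares 4.19% of its exonic bases with genes on the opposite strand.

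Ryr2, the release channel of heart muscle and the most widespread form in brain, had the highest mean RPKM of the release channels. It measured 2.86, 5.03 and 6.84 RPKM across Dbx1 replicates, against 9.07, 4.15 and 4.28 across non-Dbx1 replicates. The lowest and the highest sample differed by 3.17-fold and the groups overlapped. The means were 4.91 ± 1.99 and 5.84 ± 2.80 (SD, n = 3 each), with an L2FC of -0.20 ± 0.506 (SE, limma FDR = 0.980). That sign rested on single samples, since the L2FC was 0.08 without Dbx1 replicate 1 and 0.12 when non-Dbx1 replicate 1 was left out. Ryr2 lies at chr13:11553102-12106945 on the reverse strand.

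Ryr3, a form found in brain and at low level in many tissues, had 1.26, 1.04 and 2.19 RPKM across Dbx1 replicates, against 0.266, 1.64 and 1.11 across non-Dbx1 replicates. Non-Dbx1 replicate 1, the sample with the highest Ryr2, had the lowest Ryr3, with 45 reads against 206 to 400 elsewhere. The means were 1.50 ± 0.612 and 1.01 ± 0.694 (SD, n = 3 each), with an L2FC of 0.35 ± 0.50 (SE, limma FDR = 0.962). Without non-Dbx1 replicate 1 the L2FC was 0.05. Ryr3 lies at chr2:112631355-113217096 on the reverse strand, and the exons of Aven on the opposite strand cover 4.83% of its exonic bases.

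Within samples, Ryr2 had higher RPKM than Ryr1 in 6 of 6 samples and than Ryr3 in 6 of 6. The mean differences on the log2(RPKM + 1) scale were 1.06 and 1.48. Sign changes of the differences, taken exhaustively in an exact two-sided permutation test over 6 samples, gave p = 0.03125 for each, the smallest possible, and p = 0.125 after Benjamini-Hochberg adjustment over the 8 comparisons made within samples. These differences depend on gene length, and with merged exon lengths in place of the authors' the mean differences were 0.31 and 0.62, with Ryr2 higher in 5 of 6 samples in each case. Those values take the fewest whole reads for Ryr2, and with its reads doubled, which its deposited values also allow, the differences at merged exon lengths were 1.10 and 1.42. At the authors' lengths Ryr2 held a median of 62.2% of the summed ryanodine receptor RPKM, with a range of 43.9% to 77.5%. With the fewest whole reads for Ryr2, the median was 49.6% by the longest coding transcript and 42.6% by merged exon lengths. At the authors' lengths its share was 62.1%, 62.4% and 62.3% across Dbx1 replicates, against 77.5%, 43.9% and 57.7% across non-Dbx1 replicates. Ryr1 was above Ryr3 by a mean of 0.43 on the log2 scale (exact permutation p = 0.25, adjusted p = 0.333), with Ryr3 the higher of the pair in the Dbx1 samples on average.

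Summed RPKM of the ryanodine receptors exceeded that of the IP3 receptors in 5 of 6 samples. The ryanodine receptor sums were 4.60, 8.05 and 11.0 across Dbx1 replicates, against 11.7, 9.47 and 7.42 across non-Dbx1 replicates. The IP3 receptor sums were 0.427, 2.03 and 0.550 across Dbx1 replicates, against 16.7, 0.521 and 0.162 across non-Dbx1 replicates. The exception was non-Dbx1 replicate 1, where Itpr2 alone made up 99.5% of the IP3 receptor sum. The mean difference, IP3 receptors less ryanodine receptors, was -1.94 on the log2 scale (exact permutation p = 0.0625, adjusted p = 0.125). No difference between the groups was detected for either sum, with exact permutation p = 0.9 for the IP3 receptors and p = 0.6 for the ryanodine receptors. Within the IP3 receptor family, the highest RPKM belonged to Itpr2 in 4 samples, Itpr1 in Dbx1 replicate 2 and Itpr3 in non-Dbx1 replicate 3. The last case is near the floor, with 8 reads for Itpr3 at its annotated coding length, 12 for Itpr1 and 3 for Itpr2. It also depends on gene length. Divided by the longest coding transcript, Itpr1 was 0.129 and Itpr3 0.0943 in that sample, so Itpr3 did not lead. The 3 pairs of IP3 receptors gave adjusted p of 0.125 to 0.357 in the exact permutation test within samples.

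Stim1 encodes the main sensor of store depletion. Its RPKM was 1.37, 1.68 and 0.832 across Dbx1 replicates, against 2.29, 1.85 and 0.895 across non-Dbx1 replicates, so that replicate 3 was the lowest in each group. The means were 1.29 ± 0.428 and 1.68 ± 0.714 (SD, n = 3 each), and the L2FC was -0.21 ± 0.509 (SE, limma FDR = 0.980). Stim2 encodes a sensor that responds to smaller losses and helps to set resting calcium. Its RPKM was 1.46, 2.79 and 2.18 across Dbx1 replicates, against 0.496, 1.47 and 2.54 across non-Dbx1 replicates. The means were 2.14 ± 0.664 and 1.50 ± 1.02 (SD, n = 3 each), and the L2FC was 0.39 ± 0.566 (SE, limma FDR = 0.962). Both genes overlapped between the groups, and their L2FC had opposite signs, each smaller than its SE. When non-Dbx1 replicate 1 was left out, the L2FC was -0.037 for Stim1 and 0.07 for Stim2.

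Stim2 exceeded Stim1 in 4 of 6 samples, by a mean of 0.15 on the log2(RPKM + 1) scale (exact permutation p = 0.625, adjusted p = 0.625). Non-Dbx1 replicate 1 had the lowest Stim2 and the highest Stim1, and there Stim1 held 82.2% of the summed RPKM of the pair. In the other 5 samples the share of Stim1 was 26.1% to 55.7%. The summed STIM level was steadier than either gene, at 2.83, 4.47 and 3.01 RPKM across Dbx1 replicates, against 2.79, 3.32 and 3.44 across non-Dbx1 replicates (exact permutation p = 0.8 between groups). Stim1 lies at chr7:102267806-102437319 and Stim2 at chr5:53998499-54121057, both on the forward strand.

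Orai1, the pore that STIM proteins open, had 2.24, 2.67 and 5.30 RPKM across Dbx1 replicates, against 0.630, 3.39 and 4.43 across non-Dbx1 replicates. As with Stim2 and Ryr3, the lowest sample was non-Dbx1 replicate 1, with 16 reads. The means were 3.40 ± 1.66 and 2.82 ± 1.96 (SD, n = 3 each), and the L2FC was 0.32 ± 0.654 (SE, limma FDR = 0.976). Without non-Dbx1 replicate 1 it was -0.21. That library is also the one with the high oligodendrocyte lineage and globin sums, and their part in these low values was not tested. Orai1 lies at chr5:123015074-123030456 on the forward strand.

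Atp2a2, which encodes the SERCA2 pump, had 40.0, 33.9 and 44.4 RPKM across Dbx1 replicates, against 44.8, 35.9 and 30.8 across non-Dbx1 replicates. Between 2492 and 3105 reads stood behind each value, the highest read numbers of the 10 genes. The means were 39.4 ± 5.28 and 37.2 ± 7.06 (SD, n = 3 each), so the groups overlapped and each SD was larger than the difference. The L2FC was 0.09 ± 0.247 (SE, limma FDR = 0.983), with a 95% interval of -0.47 to 0.66. It was the only one of the 9 intervals that lay within 1 on the log2 scale in both directions. The coefficient of variation over the 6 samples was 14.9%, and of the 4425 genes with a mean of at least 10 RPKM, 333 (7.53%) had a lower one. The mean of Atp2a2 exceeded that of 94.98% of the 27067 genes with any reads. Atp2a2 lies at chr5:122453513-122502225 on the reverse strand.

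**Figure D3:**
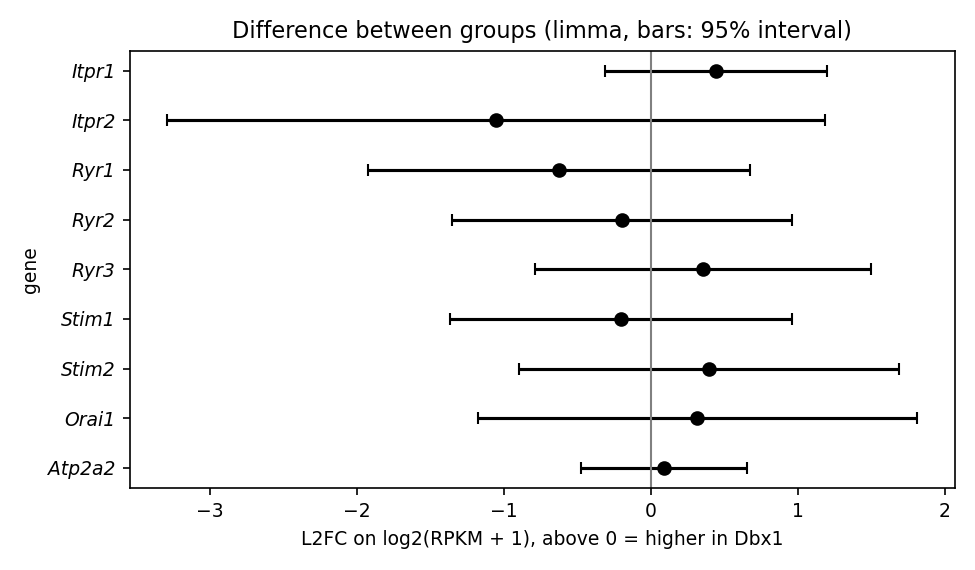
Points are the L2FC of the 9 tested genes (log2 scale, above 0 for higher in Dbx1) and bars are 95% intervals from limma. Every interval includes 0, with Atp2a2 the narrowest (-0.47 to 0.66) and Itpr2 the widest (-3.29 to 1.19).

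Across the 9 tested genes, 5 had an L2FC above 0 and 4 below, with a median of 0.09. Over all tested genes 50.8% were above 0 and the median was 0.0089. Standard errors ran from 0.247 for Atp2a2 to 0.979 for Itpr2, so a difference of 1 on the log2 scale, in at least 1 direction, lay within the interval of every gene but Atp2a2. With values of each gene permuted in full between the groups, the exact two-sided p ranged from 0.1 for Ryr1 to 1.0 for Itpr3.

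Ordered by mean RPKM over the 6 samples, the levels were Atp2a2 (38.3), Ryr2 (5.37), Orai1 (3.11), Itpr2 (3.08), Ryr1 (2.08), Stim2 (1.82), Stim1 (1.49), Ryr3 (1.25), Itpr1 (0.294) and Itpr3 (0.0206). Of the 9 pairs of neighbours in that order, the Atp2a2 and Ryr2 pair was the only one that kept it in 6 of 6 samples. Ryr2 exceeded Orai1, Orai1 exceeded Itpr2 and Ryr3 exceeded Itpr1 in 5 of 6. The place of Itpr2 came from non-Dbx1 replicate 1, since it exceeded its lower neighbour Ryr1 in 1 of 6 samples, and by median it was the eighth. Ryr1 exceeded Stim2 in 2 of 6, and the remaining 3 pairs kept the order in 4 of 6.

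Levels of different genes also depend on the length by which reads were divided. The exon length recovered from the authors' RPKM was longer than the longest coding transcript of the GENCODE vM21 annotation for 8 of the genes, by 1.66-fold for Ryr1 to 3.88-fold for Stim1, and nearly equal to it for Ryr2. Itpr3 has too few reads to fix its length and was given that of its annotated coding transcript. Divided by the longest coding transcript instead, mean levels on the RPKM scale were 83.4 for Atp2a2, 6.52 for Orai1, 5.77 for Stim1, 5.38 for Ryr2, 5.33 for Itpr2, 3.44 for Ryr1 and 3.11 for Stim2, and Stim1 then exceeded Stim2 by a mean of 0.74 on the log2 scale. For Ryr2 the recovered length of 16849 bases is the shortest that gives whole reads, and 33698 bases would give whole reads too, at 1.01 times the sum of its distinct annotated exons. For the 8 genes with a longer length, the recovered length itself was 1.0 to 1.22 times that sum. If the longer length applies, the Ryr2 reads double and its level per longest coding transcript is 10.8. Atp2a2 was the highest and Itpr1 and Itpr3 were the lowest at each length, and the ratio of a single gene's levels between samples does not depend on it.

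**Figure D4:**
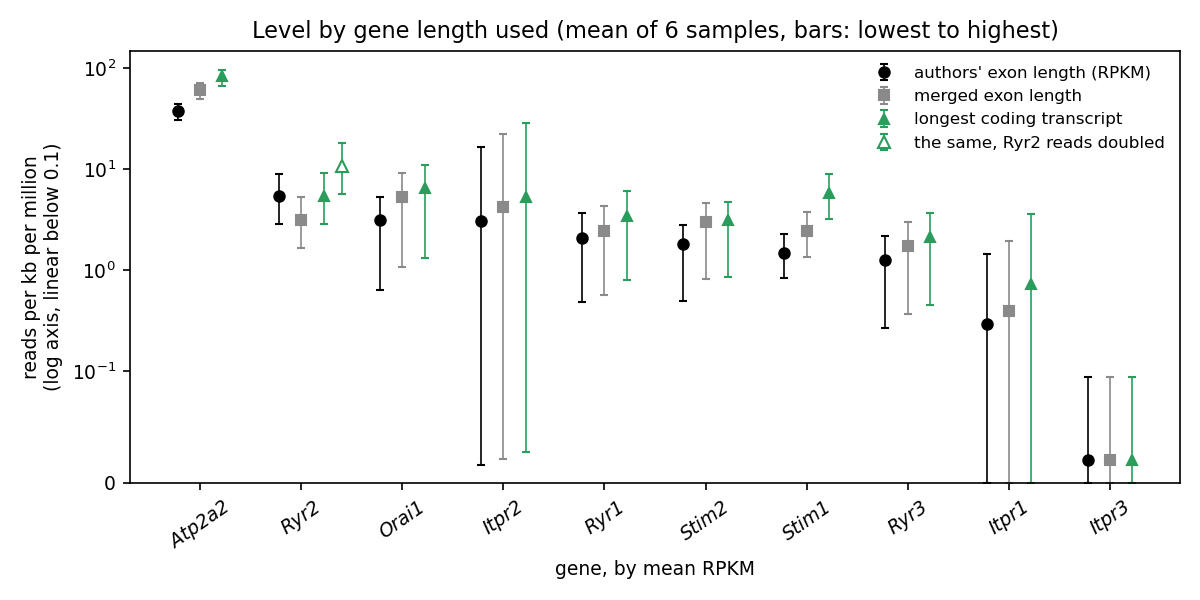
Mean level of each gene over the 6 samples on the RPKM scale (log axis, linear below 0.1), with bars from the lowest to the highest sample, for 3 choices of gene length. The mean of Stim1 is 1.49 with the authors' length and 5.77 with the longest coding transcript, and the open triangle marks 10.8 for Ryr2 with its reads doubled.

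The other genes of the pathway were taken from 6 lists of 65 genes in all, 55 of which could be tested. None passed the FDR threshold. An unadjusted p under 0.05 was found for 2 (3.64%, against 5.2% of all tested genes), both with higher Dbx1 values. Dbx1 values were on average higher for 31 genes and lower for 24, with a median L2FC of 0.03.

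Among 6 other genes of store-operated entry, 5 were tested and 1 had an L2FC above 0 (median -0.07). Saraf, whose product slows store-operated entry, was the most abundant, with 131 ± 47.2 RPKM across Dbx1 replicates, against 133 ± 19.9 across non-Dbx1 replicates (SD, n = 3 each). It was above every one of the 10 store genes. Of 4 other SERCA pumps and small SERCA regulators, Atp2a1 alone could be tested. The most abundant of these 4 was Sln, which encodes the SERCA inhibitor sarcolipin, at 1.42 and 0.885 RPKM in non-Dbx1 replicates 2 and 3 and listed at 0 in the other 4 samples, so Atp2a2 was the only SERCA pump above 1 RPKM on average.

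Of 19 partners of the release channels, 15 were tested, 7 with an L2FC above 0 and 8 below (median -0.03). Calm2, 1 of 3 genes for the calcium sensor calmodulin, led this list with 644 ± 165 and 596 ± 75.3 RPKM. Of 18 genes for IP3 production and removal, 17 were tested and 14 had an L2FC above 0, with a median of 0.28 against 0.0089 over all genes. Gna11, which encodes a G protein alpha subunit that activates phospholipase C beta, was the most abundant of them at 44.3 ± 8.33 and 35.6 ± 3.99 RPKM, with an L2FC of 0.30 ± 0.243 (SE, limma FDR = 0.949).

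Plcd4, a phospholipase C delta gene, was 1 of the 2 with an unadjusted p under 0.05. It measured 0.417, 0.678 and 3.13 RPKM across Dbx1 replicates, against 0, 0.0209 and 0.0095 across non-Dbx1 replicates, and the groups did not overlap. The non-Dbx1 values were at or near 0, and Dbx1 replicate 3 alone was above 1 RPKM. Plcd4 met the filter of RPKM above 0 in 3 samples only through the group where it is high, so its p and lack of overlap carry little weight. The L2FC was 1.08 ± 0.417 (SE, limma FDR = 0.912), so it did not pass the threshold. All 10 calcium-binding chaperones of the store were tested, 6 with an L2FC above 0 and 4 below (median 0.06). Calr, which encodes calreticulin, the main calcium-binding protein of the lumen, led them with 123 ± 30.6 and 102 ± 41.0 RPKM (SD, n = 3 each).

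Of 8 genes of other stores and leak pathways, 7 were tested, 3 with an L2FC above 0 and 4 below (median -0.21). Tmbim6, which encodes an endoplasmic reticulum protein that lowers store calcium, was the most abundant at 24.5 ± 10.6 and 29.2 ± 14.3 RPKM. Tmco1 encodes a membrane protein of the endoplasmic reticulum described as a leak channel that opens when the store is overfilled. It had 19.0, 25.1 and 19.95 RPKM across Dbx1 replicates, against 8.32, 10.5 and 11.7 across non-Dbx1 replicates, so every Dbx1 value was above every non-Dbx1 value. The L2FC was 1.0 ± 0.292 (SE, 95% interval 0.34 to 1.67), with the lowest limma FDR of the 55 genes, 0.804. Groups did not overlap for 7 of the 55 genes, beside 10.6% of all tested genes. Besides Plcd4 and Tmco1, these were 5 genes with higher non-Dbx1 values, named here after their values were seen: Fkbp1b, Homer2 and the store-operated entry gene Cracr2a, and from IP3 signalling Gnaq and the IP3 phosphatase gene Inpp5a. Their L2FC ran from -1.19 for Inpp5a to -0.29 for Gnaq, with a limma FDR of 0.912 or more. Cracr2a was 0 in every Dbx1 sample and 0.470, 0.140 and 0.414 RPKM in non-Dbx1 replicates 1, 2 and 3. It met the filter of RPKM above 0 in 3 samples only through the group where it is high. Its lack of overlap therefore followed from the filter and carries no further weight. Fkbp1b, whose product binds ryanodine receptors, had 157, 126 and 160 RPKM in Dbx1 replicates 1, 2 and 3 and 180, 212 and 222 in non-Dbx1 replicates 1, 2 and 3. Homer2, which encodes a scaffold that binds IP3 receptors, had 0.524, 0.867 and 0.563 RPKM in the former and 2.41, 1.82 and 2.49 in the latter. As given for Ryr1, cell markers separated the groups in both directions: the globin genes, Mbp, Cnp and Slc1a3 with non-Dbx1 higher, and Eno2, Gfap and Acta2 with Dbx1 higher. The part of such cells or their RNA in these 7 genes was not tested.

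**Figure D5:**
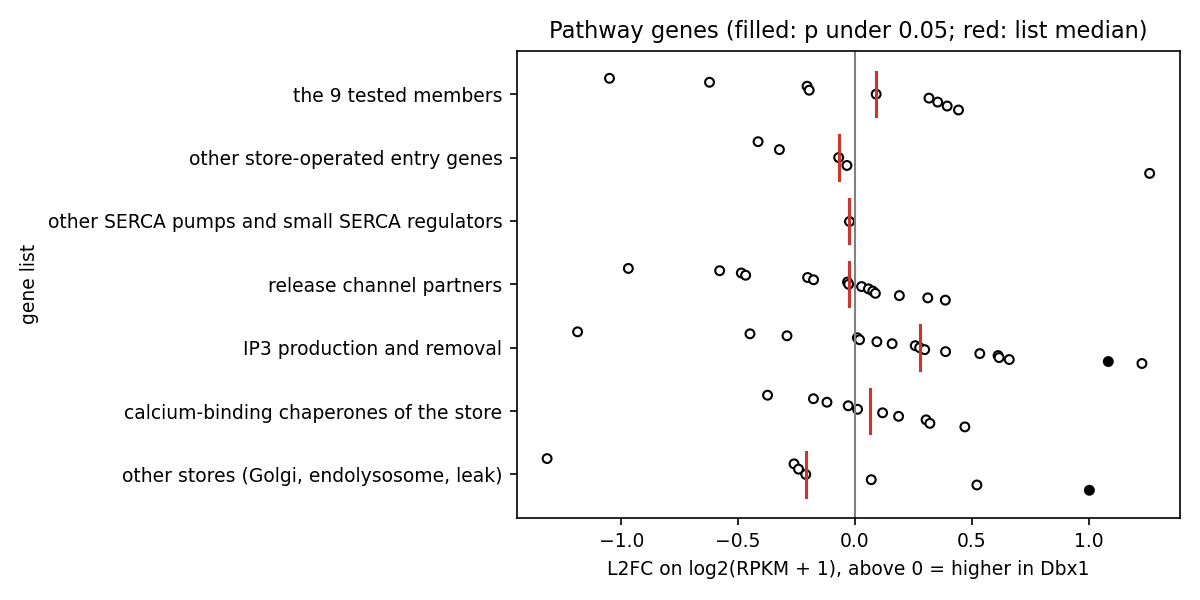
Each point is the L2FC of 1 tested gene (log2 scale, above 0 for higher in Dbx1), by gene list, with filled points for an unadjusted limma p under 0.05 and red lines for list medians. The filled points are Plcd4 (1.08) and Tmco1 (1.0), and the list of IP3 production and removal has the median farthest from 0 (0.28).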

How the data were processed

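The 6 samples held 15 neurons each from 6 mice, 3 Dbx1 and 3 non-Dbx1 by the labels. The authors amplified complementary DNA (SMART-Seq v4), aligned single-end reads to mm10 with TopHat2, counted them on gene names without strand with HTSeq and deposited RPKM values, computed with total exon length from an Ensembl annotation whose release is not given in the sources used here. RPKM was not scaled between samples. The authors tested HTSeq counts with DESeq2, and their count tables are not used here.

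Depth and reads per gene were recovered from RPKM steps as the fewest whole reads, which sum to 99.5% to 99.6% of depth. For genes with under 20 reads in all an annotated length was used where it also gave whole reads. Floors of 3 reads cover counting error alone, because amplification can copy a molecule many times. Log2(RPKM + 1) was fitted with limma 3.58.1 (R 4.3.3; lmFit, eBayes with trend) over all 17614 genes above 0 in 3 or more samples, two-sided, Benjamini-Hochberg FDR 0.1. The fit was tested on simulated data with large planted changes in genes with many reads, which does not bear on genes with few reads or on small differences. Single comparisons used exact permutation tests, between groups or by sign changes within samples (smallest p 0.03125 for 6 samples, 0.0625 for 5 and 0.25 for 3). Python 3.11.15, numpy 2.4.6, pandas 2.3.3, scipy 1.17.1 and matplotlib 3.10.9 served for the rest. Positions came from GENCODE vM21 on GRCm38 (95.05% of names matched).

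The members and lists were chosen with earlier results of these data known. Outside the 10 genes, the text names from each list the gene with the highest mean and every gene with p under 0.05, the 3 genes most correlated with the most abundant member, cell markers (1 gene of these lists is not reported here), and genes met as overlaps or as the only one of a kind. Alternatives were a pseudocount of 0.1, a filter of RPKM above 0 in 1 or more samples, a filter of RPKM 1 or more in 3 or more samples, size factors, quantile normalization, no mean-variance trend, a replicate block, each sample left out, each group alone and the median. Voom on recovered reads (10 or more reads in 3 or more samples) and other gene lengths, also with the Ryr2 reads doubled, were added after seeing the data.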

Additional observations from a re-analysis of the deposited data

How the results depend on the processing

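None of the 10 genes that could be tested in a given fit had FDR under 0.1 or p under 0.05 in limma under any of the 14 alternatives, and no pair within samples passed an adjusted p of 0.05 in the fits on 6 samples. The fits on 6 samples were limited too. Their smallest p, 0.03125, passes after adjustment over 8 comparisons only if most of the 8 pairs reach it, so not passing says little about a single pair. With 5 samples or 3 the sign-change test cannot go below 0.0625 or 0.25, so those alternatives bear only on direction. Over all genes the number with FDR under 0.1 and higher non-Dbx1 values, 1 as reported, was 0 with a pseudocount of 0.1, with genes above 0 in 1 or more samples, with the replicate block and with voom, and 3 with no mean-variance trend. With each sample left out it was 0 to 1, and the number with higher Dbx1 values, 0 as reported, was 0 to 1. Those counts of 0 stand beside 480 genes with an unadjusted p under 0.05 and higher Dbx1 values. In either direction 916 genes (5.2%) had such a p in limma, near the share that a threshold of 0.05 gives with no differences. The 2 pathway genes with p under 0.05 became 1 with a filter of RPKM 1 or more in 3 or more samples, 5 with no mean-variance trend and 7 with voom, and 1 to 4 with a sample left out (4 without Dbx1 replicate 3, 1 without non-Dbx1 replicate 3). Itpr2 was reversed with voom (0.32) and without non-Dbx1 replicate 1 (0.22), with -1.83 to 0.22 over samples left out. Ryr2 was reversed without Dbx1 replicate 1 (0.08) and non-Dbx1 replicate 1 (0.12; range -0.43 to 0.12), Orai1 without non-Dbx1 replicate 1 (-0.21; range -0.21 to 0.66) and Atp2a2 without non-Dbx1 replicate 3 (-0.033; range -0.033 to 0.23). Without reversal, the L2FC without non-Dbx1 replicate 1 was 0.05 for Ryr3, 0.07 for Stim2 and -0.037 for Stim1, and a pseudocount of 0.1 and voom gave 1.37 and 3.18 for Itpr1 and -1.0 and -1.11 for Ryr1, 0.74 and 0.70 for Ryr3, and 0.69 and 0.59 for Stim2. Family sums between groups were also reversed: Itpr, -0.74 as reported, was 0.50 without non-Dbx1 replicate 1 (range -1.46 to 0.50), Ryr, -0.29 as reported, was 0.0040 without Dbx1 replicate 1 (range -0.54 to 0.0040), and Stim, 0.07 as reported, was -0.090 without Dbx1 replicate 2 (range -0.090 to 0.17). Within samples, Ryr1 against Ryr3 (0.43) was -0.060 in the Dbx1 samples alone, and Stim1 against Stim2 (-0.15) was 0.15 in the non-Dbx1 samples alone and 0.74 with the longest coding transcript, also with the Ryr2 reads doubled. Of the 10 genes, the number that kept their place in the order of mean RPKM was 5 by the median, 5 in the Dbx1 samples alone, 6 in the non-Dbx1 samples alone and 4 with either other length. The cause of these changes was not tested. No sign was seen that the replicate numbers pair the samples. Correlations of deviations from the group means were -0.11, 0.02 and -0.05 for same-numbered samples, and -0.08 to 0.13 for the others. So few values cannot exclude pairing. With the replicate block no gene passed FDR 0.1, while 440 with higher Dbx1 and 379 with higher non-Dbx1 values had p under 0.05. Low counts limit Itpr1 and Itpr3, which had 14 reads or fewer in most samples, and the cause of the low counts was not tested.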

Other observations

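The profile of Atp2a2 over the 6 samples was most like that of Osbp (Pearson r = 0.979), Letmd1 (r = 0.978) and Slc6a7 (r = 0.978), among 4423 other tested genes with a mean of at least 10 RPKM. These are descriptions over 6 samples that share libraries and depth, and no test was made. As the highest of 4423 over 6 samples, correlations of this size can arise from the choice alone. Osbp encodes a sterol carrier of endoplasmic reticulum and Golgi contact sites, and Slc6a7 a brain proline transporter. Osbp had 13.4, 9.08 and 25.2 RPKM across Dbx1 replicates, against 23.9, 12.7 and 6.28 across non-Dbx1 replicates, a wider range than that of Atp2a2.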
